A study of Morus alba with 35 samples.

Results

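White mulberry (Morus alba) cells grown in suspension from stem callus were washed and moved into fresh medium, and the subject here is what their transcripts did over the next hours when no elicitor was added. The series holds 35 samples, of which 34 were short-read RNA sequencing libraries with gene counts, 12 from control flasks and 22 from elicited flasks, and 1 was a pooled long-read sample that is not analysed here. The 4 libraries described are the controls collected 0.5 h and 6 h after transfer, 2 flasks at each time. They are compared across every expressed gene with the 6 elicited libraries of the same 2 times, 3 flasks at each, and are followed through the later controls.

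All flasks, control and elicited, shared the handling that the labels describe. Cells of a suspension 14 days old were collected on a glass filter and rinsed with sterile water. They were then resuspended, 8 g of cells in 32 g of fresh MS6 medium per flask, and shaken in darkness at 25 °C. Control flasks received ethanol at 2.1 µL per mL of suspension, the amount that carried methyl jasmonate into the elicited flasks. Elicited flasks had 100 µM methyl jasmonate, a plant stress hormone, and 50 mM methylated beta-cyclodextrin, a ring of glucose units used as an elicitor of plant cell cultures. The labels list no cells sampled before washing and no cells left in their old medium, so washing, fresh medium, ethanol and time in the flask cannot be told apart, and the 0.5 h controls had already been transferred. Nothing states whether flasks came from separate parent suspensions, so the p-values measure the spread between flasks.

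Cultured plant cells draw sugar, nitrogen and phosphate from their medium and release metabolites and proteins into it, and subculture into fresh medium is known to restart growth after a lag. Filtration and rinsing also touch the cells and change what surrounds them, and plant cells are known to answer touch, wounding and osmotic shifts with transcripts that rise within minutes and often decay again. The gene identifiers of the deposited table carry no names or products, so genes are described by position, structure, level and course, and the labelled tissue could not be checked against marker genes. In bulk RNA of this kind, fewer cells of a type and less RNA per cell cannot be told apart.

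The 2 control libraries at 0.5 h held 17449434 and 18136001 counts, and those at 6 h held 18661780 and 17701434. All 34 libraries lay between 17191217 and 18897243 counts. Of 31401 annotated genes 24540 had a count in the 4 libraries, and 20107 were tested after scarce ones had been filtered out. At this depth 3 counts over both controls were worth 0.092 CPM (counts scaled to a fixed library total) at 0.5 h and 0.0846 CPM at 6 h. Replicate libraries correlated across genes in log2 CPM at 0.987 for 0.5 h and 0.985 for 6 h, against 0.944 to 0.950 between the times. The median absolute log2 difference between the 2 libraries of a time was 0.19 at 0.5 h and 0.24 at 6 h, and the median absolute log2 fold change between the times was 0.46 with a median standard error (SE) of 0.23. Chi-square per degree of freedom was 11.1 for the 0.5 h pair and 36.0 for the 6 h pair, so the libraries of a time were not copies of each other.

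Over these hours the control cells changed the levels of 7293 genes, 36.3% of those tested. Of these, 3379 genes rose (16.8%) and 3914 fell (19.5%), by edgeR's quasi-likelihood test with Benjamini-Hochberg adjusted p below 0.05. Genes that rose had a median log2 fold change of 0.80 and genes that fell one of -0.97, and the median over all tested genes was -0.06. At least 2-fold changes were 1219 increases (6.06%) and 1879 decreases (9.35%). At least 4-fold, 298 genes rose and 547 fell, and at least 8-fold the numbers were 99 and 163. Decreases therefore outnumbered increases at each of these sizes, under scaling by trimmed mean of M values (TMM). With scaling by library size alone, 3867 genes rose and 3145 fell, so which direction had more calls depends on the scaling, while at least 2-fold decreases still led, 1623 to 1448. With only the 10 libraries of the 2 times in the fit, the 3914 decreases became 2606. The increases of that fit are not given here, so which direction led in it is not shown.

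The genes that rose took a larger part of each library's counts at 6 h than at 0.5 h. They held 15.0% and 14.8% of the counts in the 2 libraries at 0.5 h, and 29.9% and 29.5% in the 2 libraries at 6 h. The genes that fell held 31.6% and 31.8% at 0.5 h and 17.4% and 17.2% at 6 h. The 10 genes with the most counts held 5.0% to 5.52% of each library. For 3374 of the 3379 genes that rose, both libraries at 6 h stood above both at 0.5 h, and for 3912 of the 3914 that fell both stood below. With 2 libraries a group such separation was common, at 69.1% of all tested genes, and the calls were made on these same libraries.

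**Figure D1:**
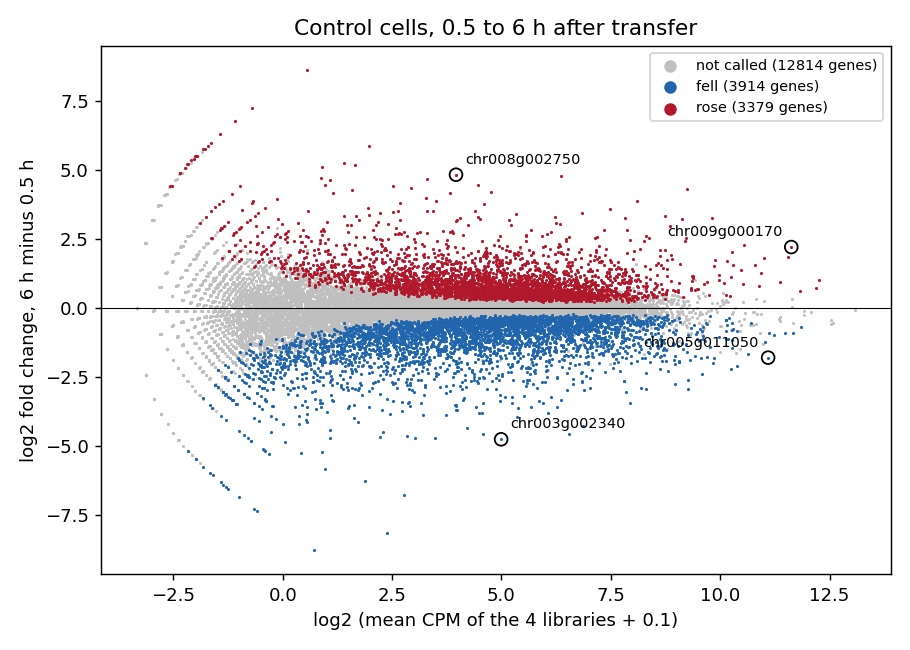
Each point is 1 of the 20107 tested genes, with the log2 of its mean CPM over the 4 control libraries plus 0.1 on the horizontal axis and the log2 fold change from 0.5 to 6 h on the vertical axis. Red points rose (3379 genes), blue points fell (3914) and grey points were not called. Rings mark the 4 genes that are named in the text, and arcs of points at the left are genes with few reads.

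Of the genes whose mean log2 CPM was below 0, 3.77% were called higher and 12.0% lower. Between 4 and 6 on that scale 24.6% were called higher and 21.4% lower. Fewer reads give fewer calls, so low genes are under-represented. The mean also includes libraries of 6 h and later, so a gene that fell and stayed low has a lower mean through its own fall. How much this adds to the split between higher and lower calls was not tested. The lists of genes that rose and that fell had median levels of 4.85 and 4.13 against 3.10 for genes not called (log2 CPM, not corrected for length). Genes switched from no read were few. Of the genes that rose, 21 had no read in either library at 0.5 h, and against a floor of 3 counts over both libraries they were at least 1.47-fold to at least 29.7-fold higher at 6 h. Of those that fell, 14 had no read in either library at 6 h and were at least 2.9-fold to at least 36.3-fold lower. All of these were scarce transcripts, with means of at most 2.73 and 3.07 CPM at the time when they were seen.

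The 2 genes named as having risen follow from a rule on the size of their fold change and of their change in CPM among 2903 eligible genes. To be eligible, a gene needed an adjusted p below 0.05 (edgeR quasi-likelihood) and no overlap between the times in these same libraries. For the genes named in either direction, the p-values and lack of overlap in the control step thus follow from the choice. They describe these genes and are not separate support. Mal_HE_154X_1_chr008g002750, a gene of 6 exons and 1522 exon bases on the plus strand of chromosome 8 (2271553 to 2275042), stood at 0.797 and 1.29 CPM in the 0.5 h controls. At 6 h it stood at 19.1 and 40.8 CPM. Both 6 h libraries lay above both at 0.5 h, although they differed from each other by more than the median gene did. Its log2 fold change was 4.83 (SE 0.48, adjusted p = 1.97e-08, edgeR quasi-likelihood). The peak was not kept in later controls, since the gene had 11.2 and 10.5 CPM at 12 h, then 1.47 and 2.65 CPM by 24 h, and 1.13 and 1.83 CPM by 72 h, close to the level at 0.5 h.

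The other increase was that of an abundant transcript. Mal_HE_154X_1_chr009g000170, with 2 exons and 660 exon bases on the plus strand of chromosome 9 (117714 to 118762), had 1070 and 1181 CPM at 0.5 h and 4643 and 5739 CPM at 6 h. This is a log2 fold change of 2.21 (SE 0.22, adjusted p = 1.52e-08, edgeR quasi-likelihood), and the 2 times did not overlap. In later controls the gene had 1111 and 840 CPM at 12 h and dropped to 268 and 262 CPM at 24 h, below where it began. By 72 h it was at 679 and 846 CPM. The gene opens a run of 5 neighbours on the plus strand (117714 to 142484), 3 of them with 2 exons. All 5 rose in controls and in elicited cells, where 80.6% of the genes that rose in controls also rose. If the 5 are near-identical copies, reads may have been divided among them, so the named gene's own values are uncertain. The sum over the 5 genes went from 2398 and 2598 CPM at 0.5 h to 9217 and 11857 CPM at 6 h, and was 491 and 488 CPM by 24 h. In that run 2 genes share exon bases with another annotated gene, and the named gene does not.

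The 2 genes named as having fallen were chosen by the same rule among 3178 eligible genes, and neither returned to its first level. Mal_HE_154X_1_chr003g002340, with 5 exons and 501 exon bases on the plus strand of chromosome 3 (2458307 to 2460866), went from 62.9 and 59.6 CPM at 0.5 h to 1.99 and 2.50 CPM at 6 h. The log2 fold change was -4.77 (SE 0.39, adjusted p = 8.62e-10, edgeR quasi-likelihood). It came back in part to 7.43 and 8.59 CPM at 12 h, 9.27 and 9.56 CPM at 24 h and 8.33 and 15.6 CPM at 48 h. At 72 h it stood at 3.73 and 3.77 CPM. Mal_HE_154X_1_chr005g011050, a single-exon gene of 954 bases on the plus strand of chromosome 5 (10647147 to 10648100), had 3026 and 3783 CPM at 0.5 h and 747 and 1199 CPM at 6 h. Its log2 fold change was -1.81 (SE 0.31, adjusted p = 3.79e-05), with no overlap between times, and at 72 h it remained low at 576 and 691 CPM.

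**Figure D2:**
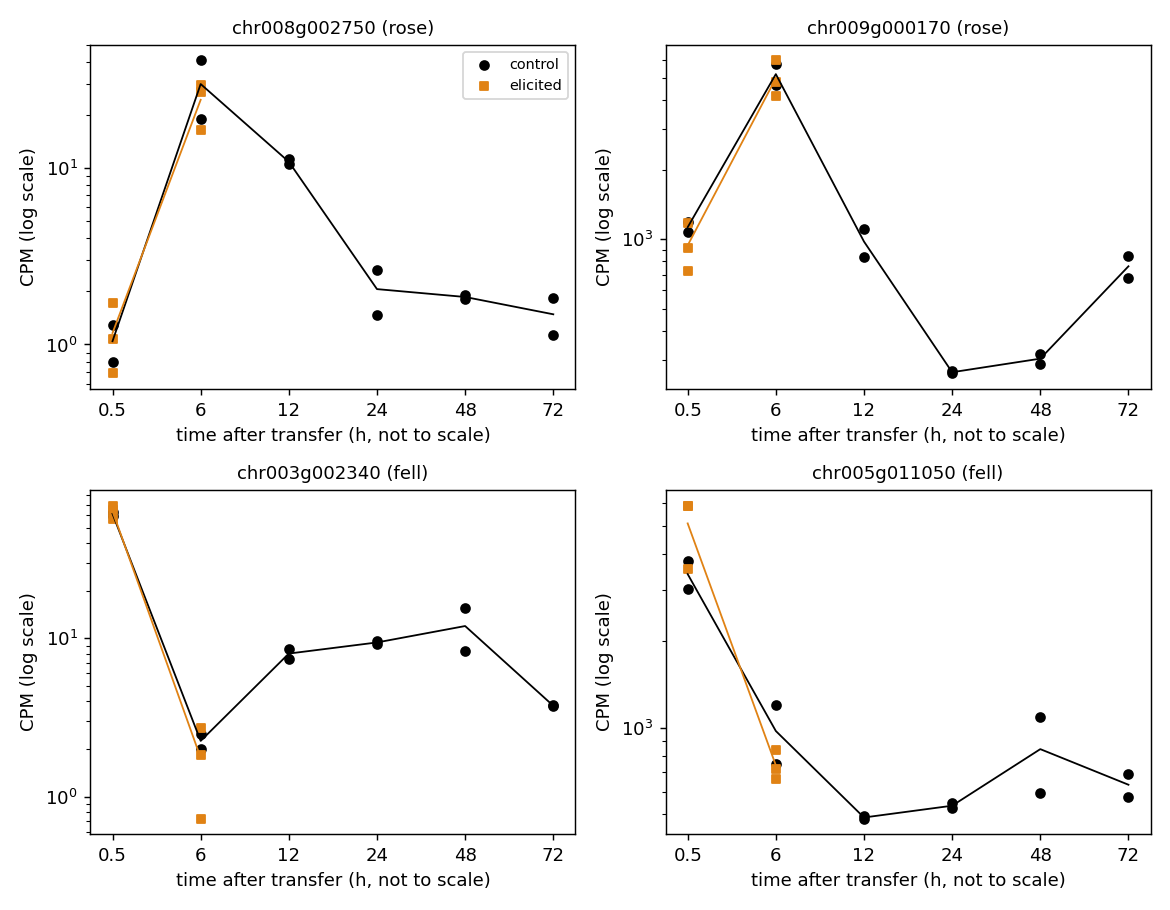
CPM of the 4 named genes on a log axis against time after transfer (time points evenly spaced, not to scale). Black circles are the 12 control libraries, orange squares are the elicited libraries at 0.5 and 6 h, and lines join group means. The 2 genes that rose (upper panels) reach 19.1 to 40.8 CPM and 4643 to 5739 CPM at 6 h in controls, and the 2 that fell (lower panels) drop to 1.99 to 2.50 CPM and 747 to 1199 CPM.

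The same 4 genes were followed in elicited flasks, which share no library with the controls. Mal_HE_154X_1_chr008g002750 had 1.73, 1.07 and 0.686 CPM at 0.5 h and 16.4, 27.1 and 29.5 CPM at 6 h, and Mal_HE_154X_1_chr009g000170 had 728, 917 and 1173 CPM and then 4193, 4782 and 5961 CPM. Mal_HE_154X_1_chr003g002340 went from 57.1, 64.6 and 69.0 CPM to 2.72, 1.83 and 0.726 CPM, and Mal_HE_154X_1_chr005g011050 from 3559, 5885 and 5863 CPM to 719, 836 and 665 CPM. All 4 moved as they did in controls, with log2 fold changes of 4.37, 2.41, -5.18 and -2.79. Their steps were not shown to differ between treatments (adjusted p = 0.787, 0.769, 0.74 and 0.219 in this order, edgeR quasi-likelihood contrast of the 2 steps), with differences, elicited minus control, of -0.46 (SE 0.65), 0.20 (SE 0.27), -0.41 (SE 0.49) and -0.98 (SE 0.38). At 72 h, however, the 2 genes that had risen were higher in elicited cells than in controls, by a log2 fold change of 2.07 (SE 0.42, adjusted p = 0.00016) for Mal_HE_154X_1_chr008g002750 and 1.44 (SE 0.19, adjusted p = 4.49e-07) for Mal_HE_154X_1_chr009g000170. The 2 that had fallen gave -0.54 (SE 0.33, adjusted p = 0.193) and -0.04 (SE 0.26, adjusted p = 0.926).

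Elicited cells went through much of the same change between the 2 times. In elicited flasks 4637 genes rose (23.1% of those tested) and 5872 fell (29.2%). Of the genes that rose in controls, 2724 also rose in elicited cells, which is 80.6% of the control list and 58.7% of the elicited list. Of those that fell in controls, 3178 also fell, 81.2% of the control list and 54.1% of the elicited list. Opposite calls were 9 among the genes that rose in controls and 29 among those that fell. A change of the same sign was seen for 3249 (96.2%) and 3763 (96.1%) of the 2 lists, whether called or not. The share over all tested genes is not given here, so these percentages only describe the 2 lists. With only the 10 libraries of the 2 times in the fit, the decreases shared by both treatments were 2099.

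The shared change can also be given as parts of each library's total, which amounts to scaling by library size. The genes that rose in controls held 13.5% ± 0.574 of the counts in the 0.5 h elicited libraries, and this became 27.4% ± 2.79 by 6 h (SD, n = 3 at each time). Those that fell in controls held 32.5% ± 0.841 and then 19.2% ± 1.35 of the elicited counts (SD, n = 3 at each time). In each case the 3 libraries at 6 h, at 24.2% to 29.1% and at 18.4% to 20.8%, lay apart from the 3 at 0.5 h, at 12.9% to 14.0% and at 31.5% to 33.0%.

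Across the 20107 genes the log2 fold changes of the 2 treatments had a Pearson r of 0.705 and a Spearman rho of 0.730. Where the mean log2 CPM was 4 or more (9349 genes) these were 0.844 and 0.830. The treatments share no library at these times but may share parent cells and a day of handling. Genes are not independent replicates and no p is attached. The value depends on how many scarce genes enter, at 0.411 with no filter on low counts and 0.805 with a minimum count of 50.

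**Figure D3:**
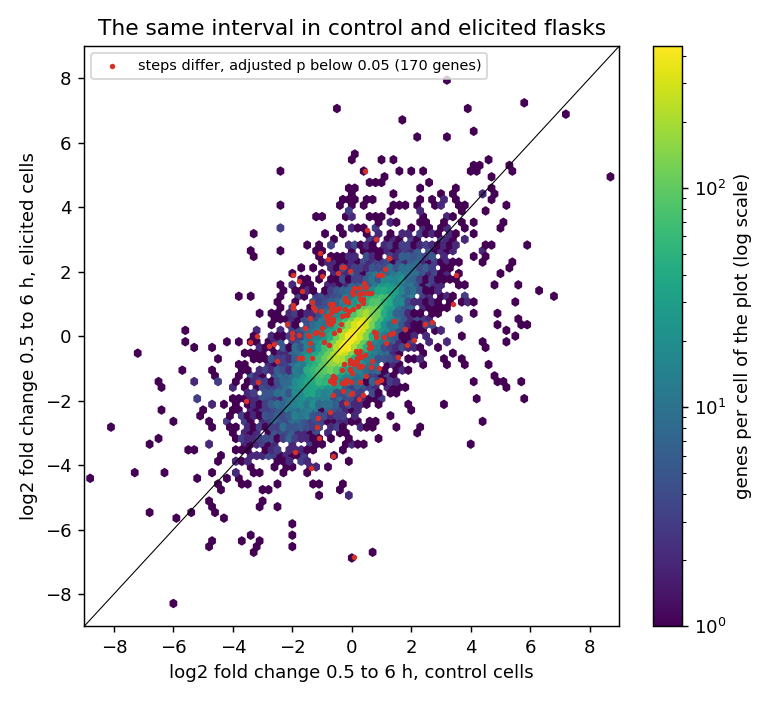
The log2 fold change from 0.5 to 6 h in control cells (horizontal) and in elicited cells (vertical), with colour for the number of genes in each cell of the plot on a log scale and the line of equal change in black. Over the 20107 genes Pearson r is 0.705. Red points are the 170 genes whose change differed between the treatments.

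A direct test of the difference between the 2 steps called 170 genes, 0.845% of those tested, with 96 higher and 74 lower in the elicited step than in the control step (edgeR quasi-likelihood contrast, Benjamini-Hochberg adjusted p below 0.05). At an unadjusted p below 0.05 there were 2941. A gene outside this list was not shown to change alike in both. The number rested on single libraries. Leaving out control 0.5 h replicate 1 gave 32 genes and leaving out replicate 2 gave 40. Leaving out control 6 h replicate 2 gave 65. Among elicited libraries, the count was 352, 300 and 50 when replicate 1, 2 or 3 of 0.5 h was dropped, and 89 when replicate 3 of 6 h was. With DESeq2 it was 371, and with only the 10 libraries of the 2 times 40.

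The gene with the smallest p in that test, picked after its values were seen, lies on the plus strand of chromosome 5 (18737817 to 18742544) and has 4 exons and 1847 exon bases. In controls it had 83.2 and 81.1 CPM at 0.5 h and 9.60 and 8.23 CPM at 6 h, a log2 fold change of -3.20 (SE 0.24, adjusted p = 3.14e-10, edgeR quasi-likelihood). In elicited cells it had 19.2, 31.7 and 23.1 CPM at 0.5 h and 20.1, 23.9 and 29.6 CPM at 6 h, with a log2 fold change of -0.01 (SE 0.19, adjusted p = 0.976). The elicited libraries thus lay below the controls at 0.5 h and above them at 6 h, with no overlap at either time, and the steps differed by 3.19 (SE 0.30, adjusted p = 7.8e-07). Later controls stayed at 5.70 to 16.0 CPM and later elicited libraries at 18.4 to 58.8 CPM, and at 72 h the log2 fold change of elicited over control was 2.73 (SE 0.23, adjusted p = 1.09e-10).

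The first hours were followed by an interval with more calls and then by intervals with fewer. Against the 7293 genes called between 0.5 and 6 h, 9084 (45.2%) were called from 6 to 12 h, 3411 (17%) from 12 to 24 h, 2840 (14.1%) from 24 to 48 h and 1207 (6%) from 48 to 72 h. Changes of at least 2-fold numbered 3098, 3987, 1363, 1193 and 472 in the same order. The intervals differ in length and neighbouring ones share libraries, so the counts are set side by side and were not compared by a test.

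To see which early changes lasted in controls without choosing genes on the libraries followed, genes were taken from the elicited step. There 1672 genes rose at least 2-fold (8.32%) and 2477 fell at least 2-fold (12.3%). In controls, 1092 (65.3%) of the former rose between 0.5 and 6 h and 7 fell, against 16.8% and 19.5% of all tested genes, and 1615 (65.2%) of the latter fell and 2 rose.

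The increases of this list faded in controls. Relative to the 0.5 h controls, the median log2 level of the 1672 genes went to 1.09 by 6 h, and was then 0.67, 0.35, 0.14 and 0.14 after 12, 24, 48 and 72 h (means of 2 libraries). The 2 libraries of each later time lay close together, the furthest apart being those at 72 h with 0.09 and 0.20. From 6 to 12 h 632 of these genes (37.8%) fell and 168 rose, where 21.5% and 23.6% of all tested genes did. From 12 to 72 h 587 (35.1%) fell and 322 (19.3%) rose, against 22% and 19.8% of all. At 72 h 628 genes (37.6%) were higher than at 0.5 h and 451 (27.0%) lower, against 31.5% and 33.3%. The 1219 genes chosen in the controls themselves faded less. Their median log2 level in controls was 1.42 at 6 h, followed by 1.03, 0.80, 0.65 and 0.78 at the later times, and at 72 h 640 were called higher than at 0.5 h and 256 lower. These values share the 0.5 h libraries by which the genes were chosen and are a description.

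The decreases of the elicited list lasted in controls. Relative to 0.5 h, the 2477 genes had a median log2 level of -1.16 at 6 h, followed by -1.12, -1.12, -1.15 and -1.19 at the 4 later times in turn. From 6 to 12 h 648 of them (26.2%) rose and 471 fell, near the 23.6% and 21.5% of all tested genes. The count of 471 was 268 without control 6 h replicate 2, 312 and 304 without control 12 h replicate 1 or 2, and 312 with scaling by library size. At 72 h 1449 (58.5%) were lower than at 0.5 h and 347 (14.0%) higher, where 33.3% and 31.5% of all tested genes were.

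Scaling by library size alone moved the median log2 change of all tested genes from 0.04 to 0.23 for 12 minus 6 h in controls, from -0.04 to 0.27 for 72 minus 0.5 h in controls and from 0.02 to 0.32 for 72 minus 0.5 h in elicited cells. Set beside these shifts the contrast between increases and decreases was still there. Under that scaling 2100 genes rose at least 2-fold in elicited cells, and in controls their median was -0.18 from 6 to 12 h and 0.42 from 0.5 to 72 h. Another 1995 genes fell at least 2-fold, with control medians of 0.26 from 6 to 12 h and -1.30 from 0.5 to 72 h. For the genes that had risen, higher calls made up 33.1% of the calls from 6 to 12 h (302 higher, 611 lower) under library size scaling and 21.0% under TMM. Over all tested genes higher calls made up 67.6% and 52.3%, so the share moved the same way there.

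**Figure D4:**
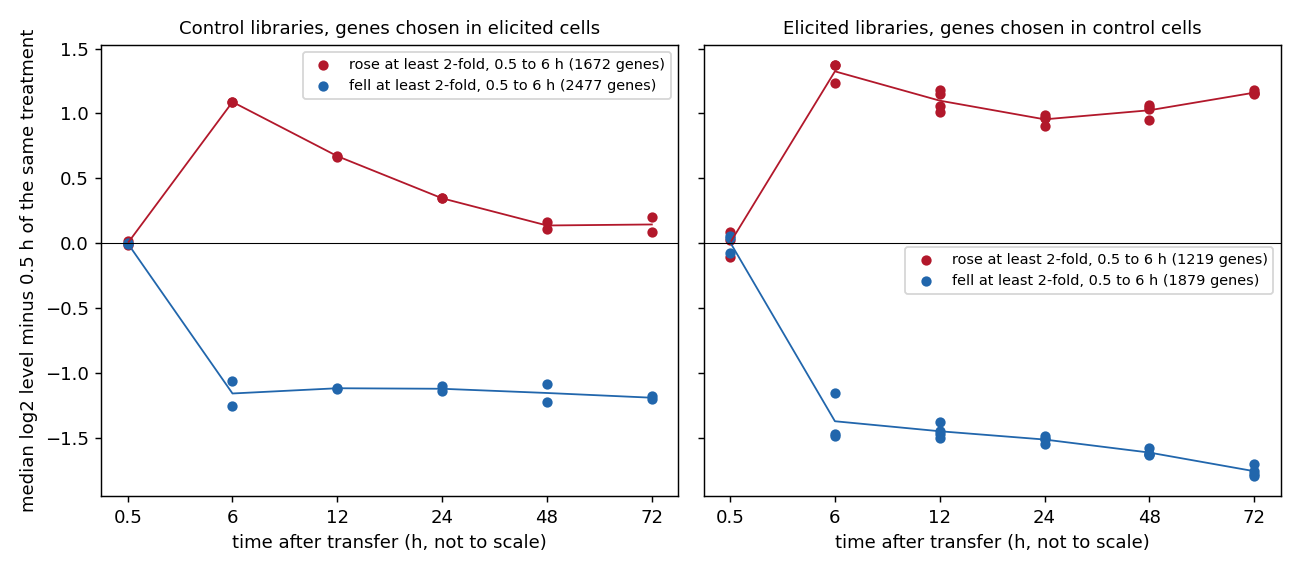
Median log2 level of gene lists relative to the mean at 0.5 h of the same treatment, with 1 point per library, lines through group means and time points evenly spaced. Left, control libraries, for genes that changed at least 2-fold in elicited cells; right, elicited libraries, for genes that changed at least 2-fold in control cells. At 72 h the genes that had risen stand at 0.14 in controls on the left and, for the other list, at 1.16 in elicited cells on the right, and those that had fallen stand at -1.19 and -1.76.

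In elicited cells the increases chosen in controls were followed in the same way. The 1219 genes that rose at least 2-fold in controls had a median log2 level of 1.32 in elicited libraries by 6 h, relative to elicited cells of 0.5 h, and of 1.10, 0.95, 1.02 and 1.16 after 12, 24, 48 and 72 h. On this same list the controls stood at 0.78 by 72 h, as given above, and whether the 2 courses differ as a list was not tested. From 0.5 to 72 h 900 of them (73.8%) rose in elicited cells and 109 (8.94%) fell, against 34.6% and 34.2% of all tested genes. The 1879 genes that fell at least 2-fold in controls stood at -1.37, -1.45, -1.51, -1.61 and -1.76 in elicited cells at the same times. The first of these values is a mean over libraries at -1.16, -1.47 and -1.49, of which replicate 1 stands apart, so a further fall from 6 to 12 h is not shown. From 0.5 to 72 h 1457 of them (77.5%) fell and 112 (5.96%) rose. The lists on the 2 sides of the plot of courses are different lists, each chosen in the other treatment.

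Shares of each library's total, again a scaling by library size, were as follows. Genes that rose in controls held 28.9% ± 0.908 of the counts in the 72 h elicited libraries (SD, n = 4), near the 27.4% ± 2.79 of 6 h. In controls, where the genes were chosen, their share went from 29.7% ± 0.279 at 6 h to 22.9% ± 0.0649 by 72 h (SD, n = 2 each). The 4 elicited libraries at 72 h, at 27.6% to 29.4%, lay above both controls, at 22.8% and 22.9%. The genes that fell held 20.2% ± 0.279 in elicited cells of 72 h (SD, n = 4), and 21.9% and 22.2% in the 2 controls.

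Elicited and control cells at 72 h share no library with the early controls, so the genes of the control step can be set beside that contrast. Of the 3379 genes that had risen in controls, 1108 (32.8%) were higher in elicited cells at 72 h and 728 (21.5%) lower, where 22.3% and 21.8% of all tested genes were. Of the 3914 that had fallen, 927 (23.7%) were higher and 982 (25.1%) lower. With scaling by library size, which put the median of all genes at -0.14, 1010 of 3867 genes that had risen were higher and 1052 lower. Higher calls then went from 60.3% of the calls to 49.0%, and over all tested genes from 50.5% to 38.9%. Which direction had more calls thus depends on the scaling, while under both the list had a larger part of higher calls than all tested genes. The count of 728 was 451 without control 0.5 h replicate 2. Within the controls themselves from 12 to 72 h, 712 (21.1%) of the genes that had risen rose further and 1018 (30.1%) fell, and 846 (21.6%) of those that had fallen rose and 962 (24.6%) fell further, against 19.8% and 22% of all tested genes. The 712 became 445 without control 0.5 h replicate 2.

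Fewer of the genes that rose than of those that fell were without introns. Single-exon genes made up 10.7% of the genes that rose, 16.3% of those that fell and 2174 of the 12814 not called. The median number of exons was 6, 5 and 4 and the median summed exon length 1806, 1506 and 1541 bases in this order. Among all tested single-exon genes 11.4% rose and 20.1% fell, against 17.8% and 19.3% of genes with 2 or more exons. The at least 2-fold lists gave other shares, with 18.5% single-exon genes among increases and 24.2% among decreases, both above the 15.8% of all tested genes. At a mean log2 CPM of 4 to 6, 18.9% of 567 single-exon genes rose and 27.2% fell, whereas 25.2% of 5382 genes with 2 or more exons rose and 20.8% fell. The same order was found at 6 to 8, with 15.5% rising and 26.7% falling among 206 single-exon genes and 25.0% and 21.1% among 2655 others. Above 8 the 44 single-exon genes gave 15.9% rising and 25.0% falling, and the 495 others 22.2% and 26.9%. Below 2 the 2 classes were close, for instance 8.65% and 8.14% rising at 0 to 2. These are shares of genes, given with no test because genes are not replicates. The mean log2 CPM that sets the classes of level includes each gene's own change, as said above.

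The called genes were spread over all 14 chromosomes. The share called lay between 28.8% on chromosome 1 and 41.2% on chromosome 14, and, where the mean log2 CPM was 4 or more, between 41.5% on chromosome 7 and 48.6% on chromosome 12.

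Neighbouring genes sometimes changed together. Runs of at least 4 neighbouring tested genes, all called in 1 direction, numbered 113 and held 521 genes, 7.14% of those called. Increases formed 43 runs with 193 genes and decreases 70 runs with 328 genes. Of the 521 genes 436 were called in the same direction in elicited cells, and in 60 runs every member was. Of all 7293 called genes 5902 were, so the genes in runs stand near the share of called genes in general. In 15 runs every member changed at least 2-fold. How many runs a random gene order would give was not tested. Neighbours of like structure may be near-identical copies that share reads, and how reads matching several genes were counted is not given in the sources used here, so single members of such runs are uncertain and sums over a run are given.

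The run with the most members, picked after its values were seen, holds 10 genes on the minus strand of chromosome 8 (3602615 to 3687437), 9 of them with 2 exons. Their summed level went from 1780 and 2623 CPM at 0.5 h to 3738 and 5550 CPM at 6 h, with log2 fold changes of 0.94 to 2.10 for the members. It went on to 12617 and 11944 CPM at 12 h and then dropped to 2518 and 2509 CPM at 24 h and 574 and 719 CPM at 72 h. In elicited cells the sum was 3211, 4250 and 3335 CPM at 0.5 h and 5835, 7476 and 9164 CPM at 6 h. There 7 of the 10 genes were called higher, where 23.1% of all tested genes and 80.6% of those that rose in controls were.

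A second run of this kind was picked in the same way and peaked at the same time. It holds 7 genes of 2 exons each on the plus strand of chromosome 2 (2632881 to 2698181). Their sum rose from 2690 and 3472 CPM to 5822 and 7463 CPM at 6 h and to 15089 and 15828 CPM at 12 h, and was 1751 and 2173 CPM at 72 h. In elicited cells 5 of the 7 were called higher, beside the same shares of 23.1% and 80.6%.

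The longest run that fell, not plotted, holds 9 genes on chromosome 11 (10896028 to 10987229), of which 2 dropped at least 2-fold. Its median log2 fold change was -0.71, and 4 of its genes share exon bases with another gene. In elicited cells 8 of the 9 fell, where 29.2% of all tested genes and 81.2% of those that fell in controls did. The step differed between treatments for 2 of the 9, and for 0.845% of all tested genes. Next in length, 8 genes of 3 exons each on chromosome 1 (58143492 to 58238304) all dropped at least 2-fold. Their sum went from 875 and 830 CPM at 0.5 h to 210 and 311 CPM at 6 h and 66.7 and 72.2 CPM at 12 h, and stayed at 53.7 to 102 CPM from 24 h on. In elicited cells all 8 fell too, from sums of 1161, 1415 and 1551 CPM to 554, 245 and 219 CPM. Another 8 genes, on chromosome 14 (3443606 to 3500546) and of unlike structure, with 1 to 12 exons, went from 898 and 992 CPM to 378 and 447 CPM, and all 8 fell in elicited cells. Of the 4 runs plotted below, none has a gene that shares exon bases with another annotated gene.

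**Figure D5:**
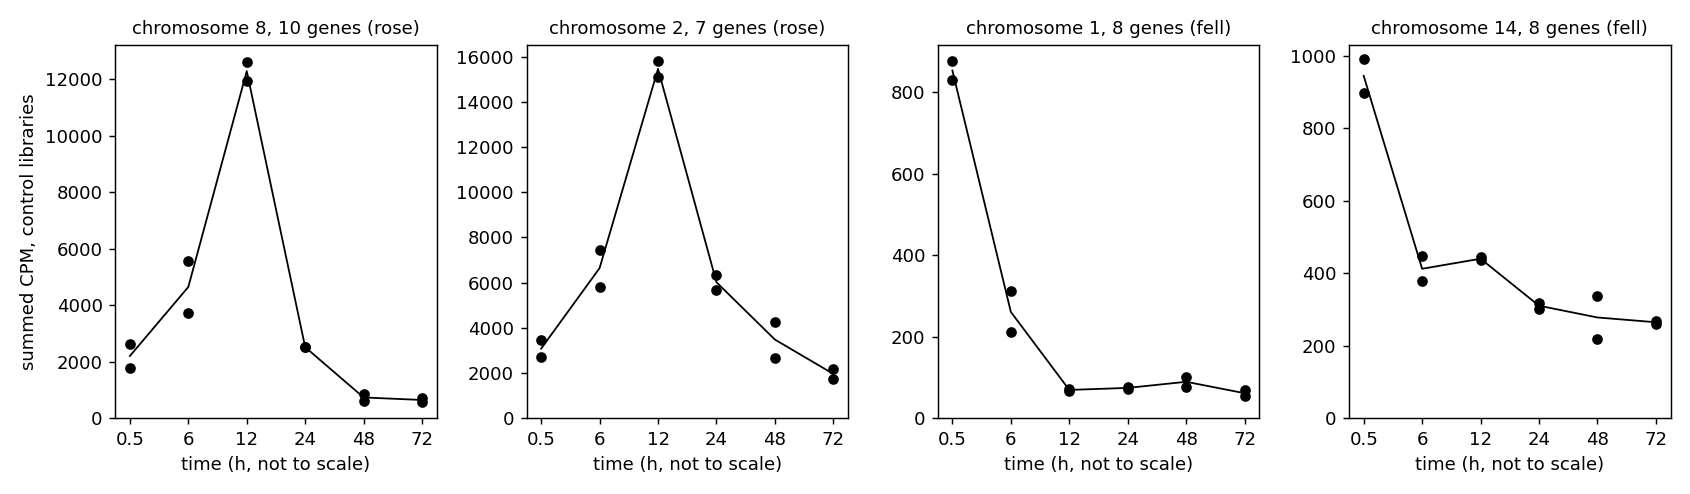
Summed CPM of 4 runs of neighbouring genes in the 12 control libraries against time after transfer (evenly spaced, not to scale), each panel with its own axis from 0, with 1 point per library and lines through group means. The runs on chromosomes 8 and 2 rise from 0.5 to 6 h, peak at 12 h with 11944 to 12617 and 15089 to 15828 CPM and fall later, while the runs on chromosomes 1 and 14 drop by 6 h and remain low.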

How the data were processed

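The authors deposited 1 table of raw counts, whole numbers of reads for each gene and each of the 34 libraries, without normalization, beside exon coordinates. The tools were fastp, STAR and featureCounts, per the submitters' processing notes. The build and annotation, the settings and versions of the tools, and the treatment of strand and of reads matching several genes were not given in the sources used here. Per the labels a stranded mRNA kit was used. Since use of strand in counting is not stated, reads of genes that overlap (2019 of those tested, 297 of the genes that rose and 357 of those that fell) cannot be assigned surely. No genome or annotation was used, so no sequence is shown.

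Columns were matched to samples by the labels in their descriptions. In R 4.3.3 with edgeR 4.0.16, genes passing filterByExpr with a minimum count of 10 were kept, libraries were scaled by TMM, and glmQLFit and glmQLFTest were run on all 34 libraries, with 12 group means, 1 for each treatment and time (quasi-likelihood). Contrasts were the step from 0.5 to 6 h in controls and in elicited cells, their difference, later steps in controls, changes from 0.5 to 72 h, and elicited minus control at 72 h. P-values were adjusted by Benjamini-Hochberg over the 20107 genes tested and called below 0.05. SE was computed as the size of the log2 fold change divided by the root of the F statistic. CPM used TMM-scaled totals, and log2 CPM a prior count of 2. Tables were summarised with Python 3.11.15, pandas 2.3.3 and scipy 1.17.1. The floors of 3 counts cover counting error only, while SE and SD include the spread between libraries. The members and lists were chosen with earlier results of these data known. Named genes had an adjusted p below 0.05, at least 10 counts in each of the 4 control libraries, no overlap between times and no exon bases shared with another gene. In each direction the one with the greatest fold change and the one with the greatest difference in mean CPM were taken.

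The test was checked on simulated counts of 19866 genes passing the filter, with 100 genes changed 2-fold and 100 changed 4-fold at 6 h in controls. Recovery in the control step was 61% at 2-fold and 89% at 4-fold, with 7 false calls, and in the difference of steps 45% and 85%, with 9. DESeq2 1.42.0 recovered 68% and 92% in the control step, with 21 false calls. The changed genes were drawn from those above a floor of CPM, in equal numbers up and down. All other genes were given the same level in both treatments at 0.5 and 6 h. In the data 36.3% of tested genes were called, so these rates are not shown to hold for scarce genes or for so broad a change. The title numbers gave 2 pairs of control libraries whose deviations from their group means correlated at 0.0604, which does not make them pairs. Alternatives were other scalings, filters, DESeq2, a replicate block, fewer libraries in the fit and leaving out each library.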

Additional observations from a re-analysis of the deposited data

Results flagged for a closer look

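The step from 0.5 to 6 h differed between elicited and control cells for 170 genes by a direct test (edgeR quasi-likelihood contrast), and this number moved between 32 and 352 when single libraries were left out. The strongest of these by p, the gene on chromosome 5 at 18737817 to 18742544, differed by 3.19 on the log2 scale, elicited minus control.

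The genes that fell at least 2-fold in controls gave library medians of -1.62, -1.63, -1.58 and -1.63 in the 4 elicited libraries at 48 h, relative to elicited cells at 0.5 h, and replicate 3, at -1.58, stood far from the other three for so narrow a range. It was 1 of 8 groups examined, and chance marks about 1 group in 20.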

How the results depend on the processing

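Of 494 values recomputed under alternatives 473 kept their direction and their side of the threshold, or stayed within 1.5 times of the count. Those that turned direction were 0, but counts of genes have no sign and could not turn. Which of 2 counts was larger did depend on the scaling. With library size scaling 3867 genes rose and 3145 fell in controls, against 3379 and 3914 under TMM. Of the genes that had risen, 1010 were then higher and 1052 lower in elicited cells at 72 h, against 1108 and 728. All 56 values of the named genes kept their call, but these genes were chosen as extremes among called genes, so this says little about other calls. Without 1 library at a time the control step gave 2360 to 2729 increases and 2756 to 2924 decreases, and log2 fold changes of 4.18 to 5.28 for Mal_HE_154X_1_chr008g002750, 2.05 to 2.35 for Mal_HE_154X_1_chr009g000170, -4.93 to -4.61 for Mal_HE_154X_1_chr003g002340 and -2.19 to -1.51 for Mal_HE_154X_1_chr005g011050. Leaving out a library moved the 170 genes whose step differed to between 32 and 352, and the Pearson r of the steps to between 0.594 and 0.710. It moved genes that rose in controls and rose again from 12 to 72 h to between 445 and 614, and those lower in elicited cells at 72 h to between 451 and 739. Genes that fell in elicited cells and fell in controls from 6 to 12 h went to between 268 and 571. With only the 10 libraries of 0.5 and 6 h, decreases in controls were 2606, shared decreases 2099 and differing steps 40, and with DESeq2 differing steps were 371. Filters gave an r of 0.411 (none) and 0.805 (minimum count 50). Library size scaling gave 302 genes that rose again and 312 that fell again from 6 to 12 h, of those that had risen and fallen at least 2-fold in elicited cells. The cause of these moves was not tested, except that fewer libraries leave fewer degrees of freedom. With the replicate number as a block the control step gave 3423 increases and 3945 decreases (title numbers) or 3226 and 3717 (numbers in the descriptions), and differing steps were 180 or 255, so no call count moved by over 1.5 times. Samples sharing a number are not shown to be pairs. Depth limits calls for scarce genes, and 2 libraries a group leave the spread to be shared with the other groups.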

Other observations

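The share of counts in the genes that fell in controls was 31.7% ± 0.152 at 0.5 h (SD, n = 2) and least at 6 h, at 17.3% ± 0.163 (SD, n = 2), and stood higher at each later time in controls, with 20.6% ± 0.326, 23.4% ± 0.0587 and 22.5% ± 0.757 after 12, 24 and 48 h and 21.9% and 22.2% in the 2 libraries of 72 h. For those that fell at least 2-fold it stayed between 4.94% and 6.07% in every later control library, against 13.5% and 14.1% at 0.5 h. The genes were chosen on the 0.5 and 6 h libraries, so these are descriptions.

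Of the 15 runs of at least 6 neighbouring genes, 12 fell and 3 rose. One of them, picked after its values were seen, holds 6 genes on chromosome 2 (6443438 to 6479383), 5 of them with 1 exon. Their log2 fold changes lay between -4.23 and -0.58 with a median of -3.63, and 5 of the 6 fell at least 2-fold. The sum went from 45.4 and 45.2 CPM at 0.5 h to 20.4 and 22.1 CPM at 6 h, a smaller change than the median of the members. All 6 fell in elicited cells as well, as did 81.2% of all genes that fell in controls.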
